A study of Mus musculus with 4 samples.

Results

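The samples described are the 2 wild-type samples of a series of 4: RNA of the mouse autopod, the distal part of the limb bud from which hand and foot form, taken from C57BL/6 embryos at E11.25. They were chosen by their titles, which name them as wild type and as biological replicates 1 and 2. The other samples carry no Hoxa13 and lack the Hoxd11 to Hoxd13 region, and they enter no value below. Per the labels' protocols and the design text, embryos were dissected in cold buffer and stored in RNAlater, and distal tissue covering the Hoxd13 domain was cut from both fore- and hindlimb buds. Total RNA was column-purified, copied to biotin-labelled cRNA and hybridised to 1 Affymetrix array per sample. The sources used here do not give how many embryos entered a sample, so the spread between the arrays may be partly technical.

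At this stage the autopod is a growing pad of mesenchyme inside an ectodermal jacket. Fibroblast growth factors from the apical ridge keep the distal mesenchyme dividing, Sonic hedgehog from the posterior margin patterns the digits, and bone morphogenetic proteins and WNT5A act within the mesenchyme. The 5′ genes of the HoxA and HoxD clusters are expressed in nested domains that end at the tip of the limb, where HOXA13 and HOXD13 together are needed for the digit territory. The first skeletal condensations of wrist and ankle have appeared, as the design text states, whereas nerves and muscle precursors have scarcely entered the autopod.

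Each value is an intensity in MAS5 signal units, scaled so that the 2% trimmed mean was 500.003 on either array. Values printed in pairs are replicate 1 first and replicate 2 second. A gene was read from its brightest probe set with 1 gene symbol, by the geometric mean of both arrays, which gave 18193 genes. A probe set binds with its own affinity, so an order of signals is not an order of transcript numbers. Among 5170 genes with 2 or more probe sets above background, the brightest exceeded the second by a median of 1.93-fold and by 7.18-fold at the 90th percentile, and this served as the yardstick for comparing genes. In all, 9010 genes had over 1 probe set. Probe sets not above background did not enter the yardstick, so it can understate the spread within a gene. The background level, 76.3 units, was the 95th percentile of 76 olfactory, vomeronasal, trace amine and taste receptor genes, which a limb bud is not known to use. In a bulk sample, fewer cells of a type and less RNA per cell cannot be told apart.

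By that level 11376 of 18193 genes (62.5%) had a signal above background. Replicate 1 alone placed 11209 genes above it and replicate 2 alone 11993, with 10902 above on both. The median gene reached 211 units, the 90th percentile 2600 and the 99th percentile 13767. The median over all probe sets was 65.6 units on replicate 1 and 85.4 on replicate 2. The Actb control probe sets gave 5′ to 3′ ratios of 0.473 and 0.764, and those of Gapdh 1.23 and 1.25. The part of these array differences in the results below was not tested.

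The arrays ranked genes almost alike. Over 11376 genes above background, Pearson's r of log2 signal was 0.977 and Spearman's rho 0.980, across genes of the same platform, which are not independent replicates. Of these genes, 326 (2.87%) were over 2-fold apart, 240 higher on replicate 2 and 86 higher on replicate 1. At the level of probe sets, 1194 of 21819 (5.47%) were over 2-fold apart. The spread fell steeply with signal: 51.9% of genes below background were over 2-fold apart, 11.6% of those between 76.3 and 200 units, 1.99% between 200 and 500, and 0.187% between 2000 and 5000. The median size of the difference fell from 1.05 log2 units below background to 0.147 between 2000 and 5000 units. The 81 genes above 20000 units departed from this: none was 2-fold apart, but their median lay 0.24 log2 units higher on replicate 2.

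**Figure D1:**
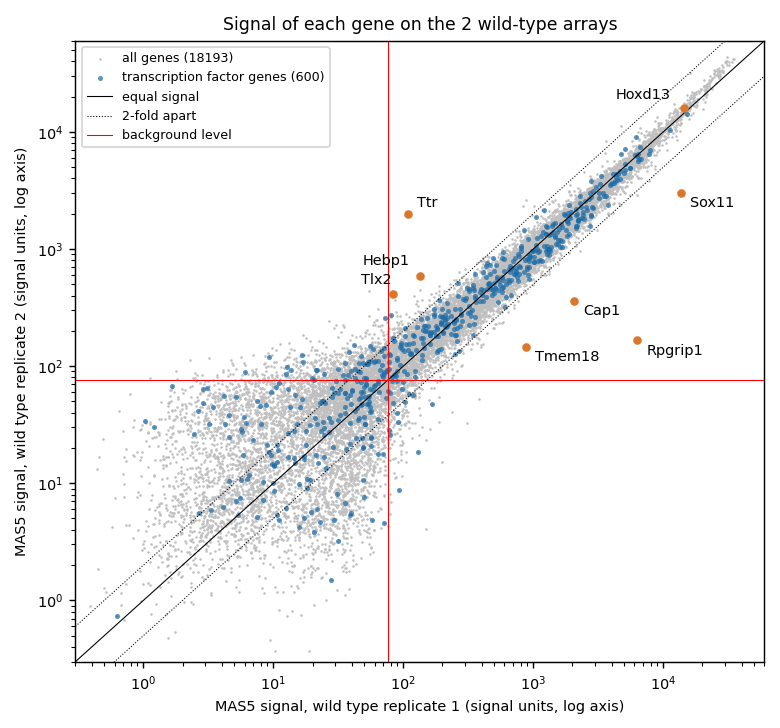
MAS5 signal of each of 18193 genes on replicate 1 (x) and replicate 2 (y), both on log axes, with transcription factor genes in blue and 8 named genes in orange. Red lines mark the background level of 76.3 units and dotted lines a 2-fold difference. Points close up along the diagonal as signal rises, and Ttr, Rpgrip1, Sox11, Cap1 and Tmem18 lie far from it.

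**Figure D2:**
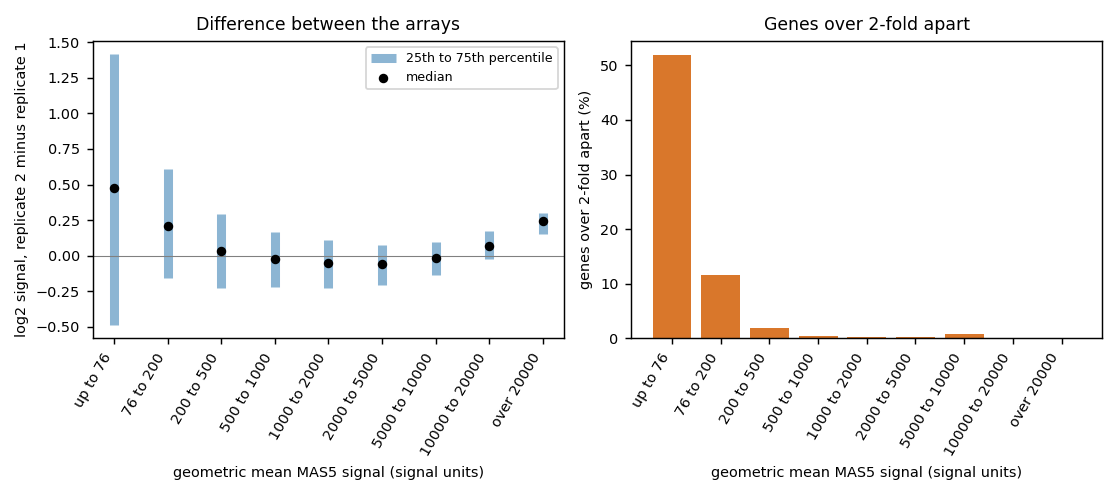
Left, the median (points) and the 25th to 75th percentile (bars) of the log2 difference between the arrays, replicate 2 minus replicate 1, for genes grouped by geometric mean signal. Right, the percent of genes over 2-fold apart in each group, which is 51.9% below background, 0.755% between 5000 and 10000 units and 0% above 10000 units.

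The brightest genes encoded the protein synthesis machinery. Of the 20 brightest, 15 belonged to the list of cytosolic ribosomal proteins, and Rps3a1, outside that list's search pattern, is a ribosomal protein gene too. The remaining members were Tpt1, the translationally controlled tumour protein, Eef1a1, which carries aminoacyl-tRNA to the ribosome, Tmsb10, an actin-binding thymosin, and Hspa8, the constitutive HSP70 chaperone. Rps29, at the top, gave 35298 and 41691 units. Eef1a1 gave 30449.6 and 40634, and Hspa8 29028 and 32926. All 20 fell between 29909 and 38361 units by geometric mean, a 1.28-fold range that is narrower than the spread between probe sets of a gene, so their order carries no weight. On the arrays ranked separately, 15 of the top 20 were shared.

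Globin and growth factor genes also stood in the first 100. The embryonic globins Hbb-bh1 (24573 and 33543 units), Hbb-y (24963 and 32849.8) and Hba-x (24741 and 31654) are made by primitive red blood cells. The first 100 also held 34 ribosomal protein genes, 7 cytoskeletal genes, 4 genes of the respiratory chain, 3 translation factors, the ligands Mdk, Igf2 and Mif, and the replication clamp gene Pcna. None of the 600 genes of the transcription factor list was among them, though the Y-box DNA-binding protein gene Ybx1, which that list's search pattern does not cover, was (17332 and 19950.0 units). It was named after its values were seen. Summed signal was concentrated to a similar extent on both arrays, the 1000 brightest genes holding 47.8% and 49.5% of it and the 100 brightest 11.9% and 13.8%.

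Start-site sequences are shown for 4 of the brightest ribosomal protein genes, a globin and Hoxd13, because ribosomal protein genes are known to begin transcription within a run of pyrimidines. Each is 60 bases, from 40 before the annotated start to 20 after it, 5′ to 3′ on the gene's strand, from RefSeq (GRCm38.p6). Capitals mark CTTTC or CTTTT or CTTCC within 10 bases either side of the start on the gene's strand and TATAAA before the start on that strand, and neighbouring pyrimidine motifs may overlap. Rps29 and Hbb-bh1 have no entry in the table.
Rplp2, chr7:141447611-141447670, plus strand: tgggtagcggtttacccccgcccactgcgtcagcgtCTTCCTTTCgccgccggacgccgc
Rpl38, chr11:114668540-114668599, plus strand: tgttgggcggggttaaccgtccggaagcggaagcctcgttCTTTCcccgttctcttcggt
Rpl7a, chr2:26910767-26910826, plus strand: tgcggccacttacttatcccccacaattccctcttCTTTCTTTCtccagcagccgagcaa
Rpl41, chr10:128549149-128549208, minus strand: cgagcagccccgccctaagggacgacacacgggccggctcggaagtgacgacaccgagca
Hba-x, chr11:32276560-32276619, plus strand: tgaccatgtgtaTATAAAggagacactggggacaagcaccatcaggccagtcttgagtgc
Hoxd13, chr2:74668185-74668244, plus strand: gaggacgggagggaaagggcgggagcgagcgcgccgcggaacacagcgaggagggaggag

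Rplp2, Rpl38 and Rpl7a hold a pyrimidine motif across the start or beginning at it, Hba-x holds a TATAAA, and these letters are not in the windows of Rpl41 and Hoxd13. Over 41 ribosomal protein genes with an entry, 13 (31.7%) held the pyrimidine motif, against 8.37% of all 27025 entries of the table. The share was 20% in the respiratory chain, 19.0% in translation factors and 3.13% (2 of 64) in sensory receptors. TATAAA stood within 50 bases before the start in 0 of 41 ribosomal protein genes and in 2.88% of all entries. The 300 bases from 250 before to 50 after the start had a median CpG content, observed over expected, of 0.903 for ribosomal protein genes, 0.941 for 82 of the 100 brightest genes, 0.389 over all entries and 0.138 for the sensory receptors. These are descriptions of sequence beside signal and carry no test.

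Most housekeeping groups held a larger share of genes above background than the 62.5% of all genes. The cell cycle list had 76 of 81 genes (93.8%) above. Its search pattern also took in genes of other roles, such as Cdc42, Cdc42ep3 and Cdc37, so this share is not of cell cycle genes alone. Pcna gave 21278 and 24889.8 units, the replicative helicase subunit Mcm7 15045 and 14932 and the proliferation marker Mki67 8402 and 7199. Translation factors were above in 51 of 52 cases, the respiratory chain in 87 of 92, the proteasome in 43 of 47 and glycolysis in 11 of 11. Cytoskeletal genes were above in 34 of 45 cases (75.6%), and histone genes in 11 of 22 (50%), under the share of all genes. The histone list covers histone genes of any kind, with H1f8, H2al2a and H2bl1 among those not above. Probe sets with several symbols were left out, and H3f3a (10.2 and 76.7 units) and H3f3b (177 and 195) were each read from 1 probe set. Its share is therefore not a share of the histone genes of dividing cells. Among glycolytic genes Ldha, lactate dehydrogenase A, gave 15079.7 and 16792 units and Pkm, pyruvate kinase, 11673 and 13525. The median signal was 2521 units over the cell cycle list and 6574 over the respiratory chain, against 211 over all genes. Immediate early genes, which are induced by handling and by growth signals, were above in 17 of 19 cases, mostly at low signal: Ier2 gave 4149 and 4442, Jun 1193 and 1408 and Fos 87.3 and 82.2. Of 13 hypoxia-responsive genes 11 were above, and of these 11 only Ddit4, an inhibitor of mTOR signalling, was over 2-fold apart, at 832 and 2345.

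Transcription factors were led by Hoxd13. Of 600 transcription factor genes measured, 380 (63.3%) were above background, close to the 62.5% of all genes, and their median of 179.5 units lay near the 211 of all genes. Hoxd13 gave 14540.4 and 16116 units, place 147 among all genes. Sox4, a SoxC factor of progenitor cells, gave 15184 and 14231 and Mecom, a zinc finger factor also called Evi1, 11171 and 10439. Hoxd13 and Sox4 exchanged places 1 and 2 between the arrays, so their order was not resolved. Mecom was bright on 1 of 3 probe sets, the others giving 49.8 and 64.8 units in one case and 83.1 and 105 in the other.

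Below them, the 20 brightest factors joined limb patterning genes with widely expressed ones. Prrx1, the paired-type homeobox gene of limb mesenchyme, gave 7952 and 7008 units, Hand2, which acts upstream of Shh at the posterior margin, 6660.2 and 7370.2, and Lhx9, a LIM homeobox gene of the distal limb, 6086 and 6289. Hoxa9 gave 5543 and 4905, and the mesenchymal repressor gene Snai2 5111 and 5307. In these 5 limb genes the arrays differed by 1.13-fold or less. Id1 (6195 and 9016) and Id3 (4714 and 6459), targets of BMP signalling that block basic helix-loop-helix factors, were both higher on replicate 2. Of the E-protein partners of such factors, Tcf12 (7821 and 6413) was higher on replicate 1 and Tcf4 (5098 and 7136) on replicate 2. Yy1, Ets2, Plagl1, Hif1a, Smad4, Tead2 and Ctcf filled further places at 4684 to 6732 units per array.

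Sox11, another SoxC gene, was the exception to the likeness of the arrays. Its brightest probe set gave 13737 and 3007 units, place 3 among factors on replicate 1 and place 40 on replicate 2. Of its 5 other probe sets, 3 were higher on replicate 1 (1 at 5772 and 4844, 1 at 4529.8 and 3368, 1 at 8137 and 3689) and 2 on replicate 2 (1 at 2443 and 4002, 1 at 2378 and 5066), so they shared no direction. The arrays shared 6 of their 10 brightest factors, 18 of 20 and 45 of 50. The choice of probe set moved the order further than the choice of array: by the median over a gene's probe sets Hoxd13 was again first, at 7552 units, and Id1 second, whereas Sox4 moved to place 64, Prrx1 to 68, Hand2 to 77 and Mecom to 299, and 9 of the 20 brightest stayed among the 20.

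Families of factors differed widely in how many members had signal, set beside the 63.3% of all factors. All 8 E2f genes, all 4 Id genes, all 4 Sall genes and 15 of 16 Klf genes were above background, as were 7 of 8 Smad genes. Sox genes, with 14 of 19 (73.7%), and Tbx genes, with 9 of 13 (69.2%), lay nearer the share of all factors. In contrast 2 of 8 Pax, 2 of 12 Nkx, 2 of 12 Pou and 1 of 7 Neurod and Neurog genes were above, families used mainly in neural, endodermal or axial tissue. Forkhead genes, with 17 of 38 (44.7%), and nuclear receptors, with 18 of 40 (45%), also lay under it.

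Within the Hox family the brightest genes lay in clusters D and A. Of 33 Hox genes measured 18 (54.5%) were above background, against 63.3% of all factors. These were 6 of 9 in cluster A, 1 of 9 in B, 5 of 7 in C and 6 of 8 in D. Cluster B had only Hoxb2 above, at 141 and 157 units, and the brightest C gene was Hoxc13 at 159.8 and 184. In cluster D, Hoxd13 (14540.4 and 16116) was followed by Hoxd10 (4004 and 3646), Hoxd9 (2147 and 1516), Hoxd11 (1831 and 1745), Hoxd12 (1208 and 2171) and Hoxd8 (939 and 860.3). Hoxd3 (18.3 and 11) and Hoxd1 (19.3 and 31.4), at the other end of the cluster, were not above background. Hoxd9, Hoxd11 and Hoxd12 were not resolved, since their values overlapped between the arrays. Evx2, the homeobox gene next to Hoxd13, gave 85.4 and 164.

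In cluster A, Hoxa9 was the brightest, then Hoxa10 (4445 and 4338 units), Hoxa11 (1568 and 1492), Hoxa13 (842 and 1463), Hoxa5 (720.3 and 614) and Hoxa3 (258 and 165). The place of Hoxa10 depended on the choice of probe set. Without those with an ID ending in _x_at, _s_at or _a_at, Hoxa10 lay over 3.37 log2 units below Hoxd10 on both arrays. The antisense transcript Hoxa11os gave 4808 and 3415 units, above that of Hoxa11 on both arrays, though probe sets of the same gene differ as much. Hoxa13, the partner of Hoxd13, took place 152 on replicate 1 and 93 on replicate 2 among the 600 factors, above their median of 179.5 units on both arrays. The second probe set of Hoxd13 gave 2573 and 5395 units, also above Hoxa13 on both arrays.

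Ligand genes were above background in 116 of 238 cases (48.7%), against 62.5% of all genes, and their median of 72.9 units lay under the background level. Growth factors of wide use led: Mdk, midkine, gave 26407 and 29848 units, Igf2, insulin-like growth factor 2, 20721 and 20679, and Mif, macrophage migration inhibitory factor, 18389 and 22154. Ptn, pleiotrophin, the relative of midkine, gave 8503 and 6969. Ranked separately, the arrays shared all 10 of their 10 brightest ligands.

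Limb signals followed at lower intensity. Wnt5a, a ligand of directed outgrowth, gave 7037 and 4995 units, the Notch ligand gene Jag1 5508 and 4332, Pdgfc 5209.8 and 4044 and the ephrin gene Efna2 3193 and 2823. Bmp4 gave 2138 and 2587, Bmp7 852 and 809 and Bmp2 819 and 791. Shh, made by a small posterior group of cells, gave 1941 and 1289, 1.51-fold higher on replicate 1, and Fgf8, made by the apical ridge, 604 and 592. Hdgf (4638 and 4225) and the chemokine Cxcl14 (1402 and 1912) complete the 12 brightest.

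Secreted antagonists were above background in 23 of 35 cases (65.7%), near the 62.5% of all genes. None of the 23 was over 2-fold apart, against 2.87% of all genes above background, and 23 genes are too few to set them apart from that share. Igfbp4, which binds insulin-like growth factors, gave 10894 and 11791 units, Igfbp2 3153 and 3649 and Igfbp5 2753 and 2009. Without suffixed probe sets, those with an ID ending in _x_at, _s_at or _a_at, these 3 and Wif1 left the 8 brightest antagonists, of which 4 remained. Fstl1, a follistatin-like glycoprotein, gave 7777 and 7475. Wnt antagonists were represented by Frzb (4374 and 3381), Sfrp2 (2314 and 2911) and Wif1 (836 and 893), and BMP binding by Twsg1 (1818 and 2003). Grem1, the BMP antagonist that relays Shh to the ridge, gave 213 and 243 units.

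Receptor genes were above background in 122 of 192 cases (63.5%), again near the share of all genes. Of the hedgehog pathway, Gas1, a co-receptor and the brightest receptor gene, gave 7786 and 9336 units, Ptch1, the receptor and a target of the pathway, 5501 and 4168, and Smo, the transducer, 3011 and 2685. Receptors of the TGF-beta superfamily among the 12 brightest were Tgfbr1 (7608 and 5135), Bmpr1a (4364 and 3942) and Bmpr2 (3401 and 2777). Tyrosine kinase receptors were Pdgfra, a mesenchymal marker (5235 and 5615), Igf1r (4225 and 3000.4) and Epha4 (4118 and 2439). The apelin receptor gene Aplnr gave 5333 and 4212, the semaphorin co-receptor Nrp2 4178 and 2716 and the Wnt receptor Fzd1 3678 and 3074. Of these 12, 10 were higher on replicate 1, with Gas1 and Pdgfra the exceptions, and over the 122 receptors above background the median difference was -0.055 log2 units with 53 higher on replicate 2. By the median over probe sets 5 of the 12 remained among the 12 brightest.

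Matrix genes were above background in 101 of 141 cases (71.6%), against 62.5% of all genes, with a median of 213 units, close to the 211 of all genes. Col9a1, a fibril-associated collagen of cartilage, was the brightest at 8286 and 9138 units. Its paralogues Col9a3 (249 and 231) and Col9a2 (102 and 131) were far dimmer. Fibrillar collagens of loose mesenchyme were Col1a2 (5251 and 5843), Col3a1 (4233 and 3873) and Col5a2 (2792 and 2343). Basement membrane genes were Col4a1 (7453 and 4632), Col4a2 (2769 and 2351) and Lamb1 (2917 and 2314). Cell-surface proteoglycan genes were the glypican gene Gpc3 (6408 and 10054) and the syndecan gene Sdc1 (6303 and 6011). Microfibril and interstitial components were Fbln1 (5884 and 4981), Mfap2 (4752 and 5246), Fn1 (4537 and 3384), Fbn2 (4211 and 2479), Vcan (3757 and 2659) and Sparc (1869 and 3122).

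Of the 15 brightest matrix genes, the 4 furthest apart between the arrays were picked for description. Col4a1 was 1.61-fold (-0.69 log2 units) and Fbn2 1.70-fold (-0.76) higher on replicate 1. Gpc3 was 1.57-fold (0.65) and Sparc 1.67-fold (0.74) higher on replicate 2. For all genes between 2000 and 5000 units the median was 1.11-fold and the SD of the difference 0.237 log2 units. Between 5000 and 10000 units these were 1.08-fold and 0.244. These differences had no common direction: 50 of the 101 matrix genes above background were higher on replicate 2. Among 20 integrins 11 (55%) were above background, against 62.5% of all genes. They were led by Itgav, a subunit of fibronectin and vitronectin receptors, at 4365 and 2959.6, and Itgb1, the common beta subunit, at 1917 and 2497.

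**Figure D3:**
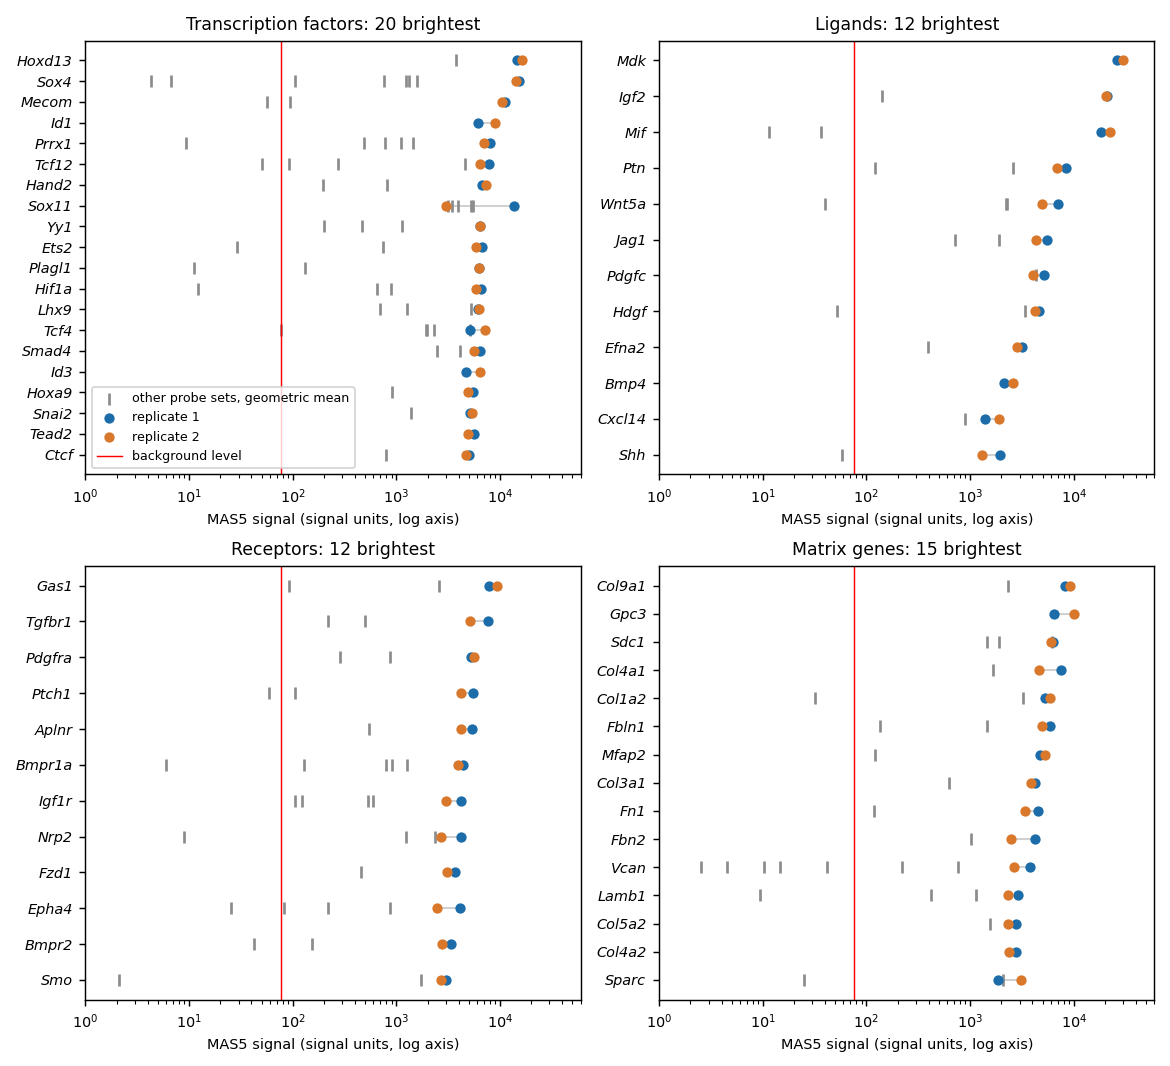
MAS5 signal (log axis) of the 20 brightest transcription factor genes, 12 ligands, 12 receptors and 15 matrix genes on replicate 1 (blue) and replicate 2 (orange), with the geometric mean of each gene's other probe sets as grey ticks and the background level in red. The 2 arrays lie close together for nearly all genes, Sox11 apart, while the other probe sets of a gene spread over a far wider range.

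Paralogue pairs were compared against the yardstick of probe sets of a gene. Of 52 pairs listed 45 had a value for both members, and 44 of these had the same order on both arrays. The exception was Tbx5 (261 and 515 units), of the forelimb, against Tbx4 (288 and 378), of the hindlimb. The median SD of a log2 ratio over the arrays was 0.34. In 16 pairs the log2 ratio passed the 90th percentile of probe sets of a gene (2.84, taken as the limit) on both arrays, and 14 pairs lay within its median (0.95), where no order can be read. Without suffixed probe sets, where the limit itself was 3.37, only 6 of the 16 remained past it: Hoxa13 and Hoxd13, Hoxc10 and Hoxd10, Hand2 and Hand1, Jag1 and Jag2, Igf2 and Igf1, and Epha4 and Epha7. The pairs Sall1 and Sall3, Col1a2 and Col1a1, Gpc3 and Gpc4, Id3 and Id4, and Hoxd13 and Hoxd12 fell within it, and 5 had no value. By the median over probe sets 8 of the 16 remained, and Hoxa13 and Hoxd13, Mycn and Myc, Jag1 and Jag2, Epha4 and Epha7, and Wnt5a and Wnt5b were among the 8 that did not. Ratios below are log2, first gene over second, mean ± SD with n = 2 arrays.

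Among Hox pairs, Hoxa13 against Hoxd13 gave -4.11 and -3.46 on the arrays (-3.79 ± 0.46, 13.8-fold), and Hoxd13 against Hoxd12 3.24 ± 0.49, both past the limit. Hoxc10 against Hoxd10 gave -4.59 ± 0.06. In contrast Hoxa11 against Hoxd11 gave -0.23 ± 0.0015 and Hoxa10 against Hoxd10 0.20 ± 0.07, within the yardstick's median. The Hoxa10 to Hoxd10 order reversed by the median over probe sets and without suffixed probe sets. Without suffixed probe sets this pair was past the limit of 3.37, with Hoxa10 the dimmer gene. Hoxa9 against Hoxd9 gave 1.53 ± 0.23, between the limits.

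Other regulators past the limit were Mycn over Myc (4.44 ± 0.04, 21.7-fold), with Mycn at 4621 and 4643 and Myc at 209 and 218 units, Sall1 over Sall3 (3.37 ± 0.59) and Id3 over Id4 (3.32 ± 0.19). Hand1, at 41.7 and 152 units, was above background on 1 of the 2 arrays, so only a bound can be read: with Hand1 set to the background level where it lay below, Hand2 was at least 64.9-fold brighter. Dlx6 (4.21 and 32.1), Rarb (49.8 and 36.7) and Fgf4 (46.1 and 76.9) were not above background by the mean of both arrays. Bounded in the same way, Dlx5 was at least 9.76-fold brighter than Dlx6, Rarg at least 20.5-fold brighter than Rarb and Fgf8 at least 7.81-fold brighter than Fgf4. Within the yardstick's median lay Gli3 over Gli2 (0.88 ± 0.19), Lhx9 over Lhx2 (0.94 ± 0.08), Prrx1 over Prrx2 (0.78 ± 0.14) and Tfap2b over Tfap2a (0.90 ± 0.07). The order of Lhx9 and Lhx2 and that of Prrx1 and Prrx2 reversed by the median over probe sets. Sox11 against Sox4 (-0.14 and -2.24 on the arrays) reversed under the same rule.

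Among signalling pairs, Igf1 gave 114 and 75.9 units, above background on 1 of the 2 arrays, so its ratio is a lower bound, with Igf1 set to the background level where it lay below: Igf2 was at least 222-fold brighter. Wnt5a exceeded Wnt5b by 4.59 ± 0.11, Jag1 exceeded Jag2 by 4.40 ± 0.30 and Epha4 exceeded Epha7 by 4.02 ± 0.42. Between the limits lay Bmp4 over Bmp2 (1.55 ± 0.23), Bmp4 over Bmp7 (1.33 and 1.68 on the arrays), Bmpr1a over Bmpr1b (2.67 ± 0.29), Gli3 over Gli1 (2.65 ± 0.06) and Fgf8 over Fgf9 (2.16 ± 0.07). The retinoic acid binding protein gene Crabp2 exceeded Crabp1, the ratio of Crabp1 to Crabp2 being -1.44 ± 0.35. In the matrix, Col1a2 exceeded Col1a1 by 3.03 ± 0.08 and Gpc3 exceeded Gpc4 by 3.37 ± 0.38. The products of Col1a2 and Col1a1 assemble into the same collagen, and their probe sets differed by 8.18-fold, just past the limit of 7.18-fold.

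**Figure D4:**
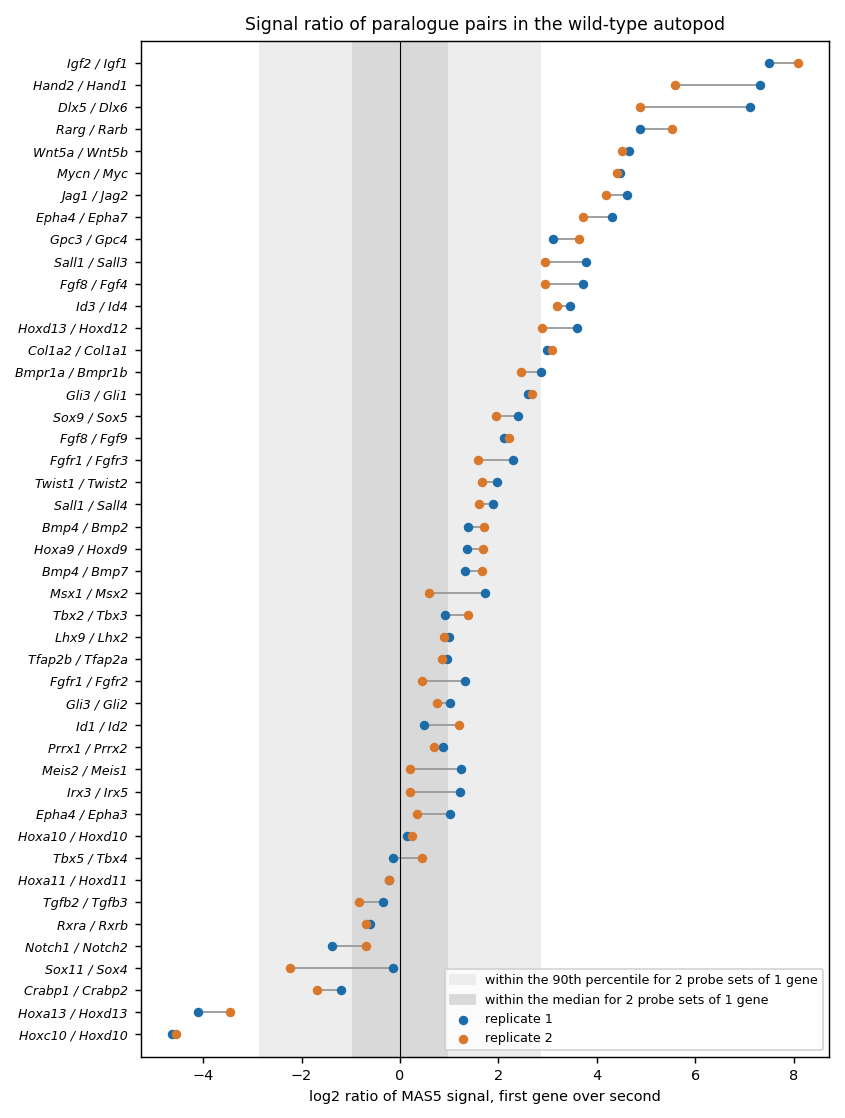
Log2 ratio of MAS5 signal for 45 paralogue pairs, first gene over second, on replicate 1 (blue) and replicate 2 (orange). Dark and light grey bands hold ratios within the median (0.95) and the 90th percentile (2.84) of the ratio between the brightest and second probe set of a gene. 16 pairs lie outside the light band on both arrays, 5 of them with a dimmer gene not above background on 1 or both arrays, with Igf2 over Igf1 the farthest up and Hoxc10 over Hoxd10 the farthest down.

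Marker genes of the labelled tissue are described here, to be read beside the 62.5% of all genes above background. Their lists were chosen with earlier results of these data known, so they cannot check the label. All 8 limb mesenchyme markers were above background, with a median of 3174 units, against 211 over all genes: Prrx1, Pdgfra, Prrx2 at 4328 and 4355, Twist1 at 3644 and 2827 and Msx1 at 3489.9 and 2821 were the brightest. Of 22 distal limb genes 20 were above, with a median of 1510, among them Cyp26b1, which clears retinoic acid from the distal limb (3955 and 3789.6), and Sall1 (3766 and 2358). Of 13 proximal limb genes 12 were above, with a median of 713. The proximal list was led by Hoxd10, Tbx15 (2526 and 2287 units), Tbx18 (2195 and 1766), Hoxd9, Hoxa11 and Shox2 (1658 and 1038). Meis1 (148 and 198) and Meis2 (352 and 229), also of this list, were dimmer, so its members had no common level. Posterior genes were above in 7 of 9 cases, with a median of 588 units. Anterior genes were above in 5 of 6, with a median of 129.5 units, under the 211 of all genes. Of these, Asb4 (8428 and 6319.8) and Gli3 (3901 and 3491) were bright. Irx3 (138 and 126) and Pax9 (105 and 154) were far dimmer, and Alx4 (77.1 and 28.7) was not above background. The dorsal genes Lmx1b (858 and 804) and Wnt7a (228 and 245) and the ventral gene En1 (101 and 90.5) were all above background.

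Limb identity genes were not uniform in signal. Of 3 forelimb identity genes 1 was above background and of 4 hindlimb identity genes 2, against 62.5% of all genes. Tbx5 and Tbx4, with values given above, were above background and above the 211 units of the median gene on both arrays. Not above background were Hoxc5 (46.9 and 72.8 units) and Hoxc4 (5.59 and 10.6) of the forelimb list. The same held for Isl1 (20.5 and 3.84) and Pitx1 (39.1 and 21.8), a hindlimb factor, of the hindlimb list. Hoxc10, also of the hindlimb, gave 161 and 156.

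Markers of several other cell types had signal, to be read beside the 62.5% of all genes above background. Ectoderm markers were above in 13 of 14 cases (92.9%), with Epcam at 1622 and 1452, Krt5 at 1134 and 1241, Krt14 at 1054 and 1185 and Cdh1, E-cadherin, at 1323 and 695. Apical ridge markers were above in 10 of 13 cases (76.9%), Sp8 at 484 and 401 and Sp6 at 446 and 498 among them. All 14 endothelial markers were above at 164 to 809 units, led by Plvap (819 and 798) and Emcn (664 and 689.7). Macrophage markers were above in 9 of 12 cases (75%), nearer the share of all genes, Csf1r at 509 and 556 and C1qa at 71.5 and 11.8, the latter not above background. Cartilage markers were above in 9 of 13 cases (69.2%), also near that share: early genes were bright, Col2a1 at 2412 and 2213 and Sox9 at 1873 and 2389, while Acan, of mature cartilage, gave 62.5 and 99.8 and Matn1 4.08 and 25.6. Of the tendon genes, Mkx gave 328 and 289.8 and Scx 198 and 260.5.

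Muscle precursor markers and genes of foreign tissues were mostly not above background. Of 9 muscle precursor markers 3 were above background, namely Met (354 and 274 units), Actc1 (116 and 92.7) and Lbx1 (98.5 and 81.8), while Pax3 (42.4 and 94.6) and Myf5 (73.7 and 53.7) were not. Nerve markers were above in 5 of 7 cases (71.4%, against 62.5% of all genes), with Stmn2 the brightest at 377 and 463. Schwann and neural crest markers were likewise above in 5 of 7: Kit gave 611 and 618 and Erbb3 494 and 436, while Sox10 gave 97.4 and 64.2, above background on replicate 1 only. None of 4 heart, 3 pancreas, 4 sperm and 3 lens genes was above background by the mean of both arrays, although Nppa (29.3 and 105) and Prm1 (27.2 and 115) passed the level on replicate 2. Of 4 liver genes only Ttr was above it.

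**Figure D5:**
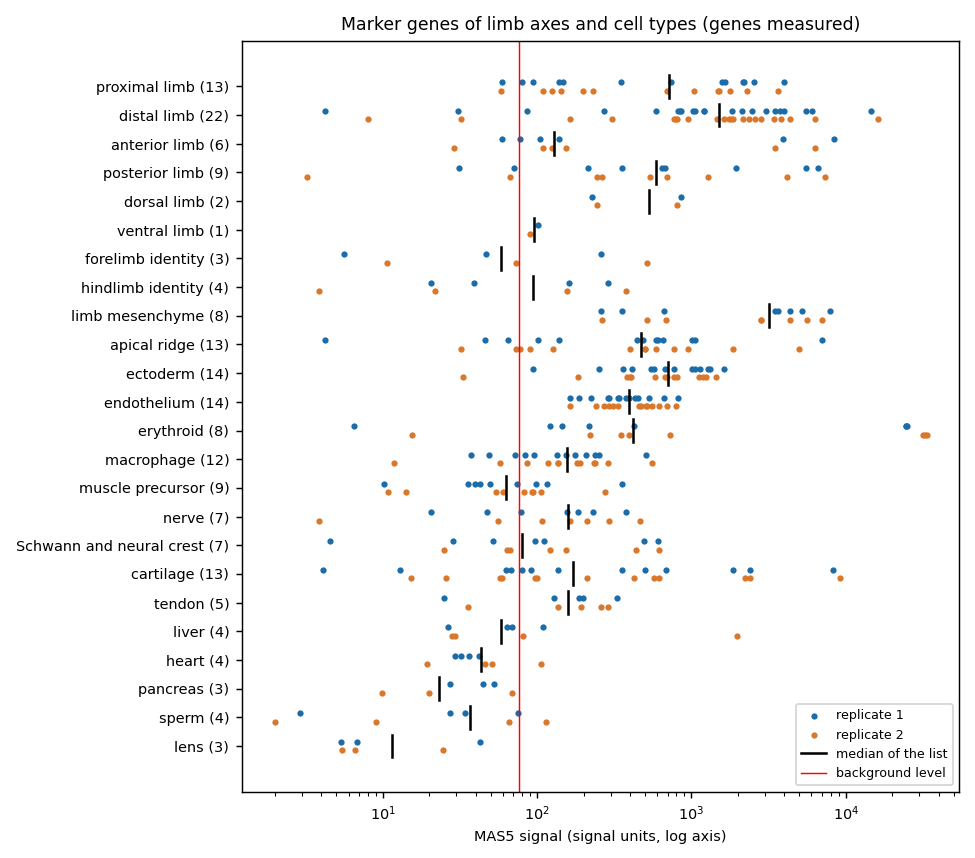
MAS5 signal (log axis) of marker genes for limb axes and cell types on replicate 1 (blue) and replicate 2 (orange), with each list's median in black, the background level in red and the number of genes measured in brackets. Limb mesenchyme and distal limb genes have the highest medians (3174 and 1510 units). Forelimb identity, muscle precursor, liver, heart, pancreas, sperm and lens genes have medians under 76.3 units.

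A small number of genes set the arrays apart. Of 10902 genes above background on both arrays taken singly, 158 were over 2-fold apart and 8 over 4-fold. Ttr, transthyretin, a thyroid hormone carrier made by yolk sac, liver and choroid plexus, gave 109 and 1984 units, 18.2-fold higher on replicate 2, and all 3 of its other probe sets ran the same way (27.5 and 643, 26.5 and 1048, 128 and 1364). The liver genes Alb (63.4 and 28) and Afp (26.6 and 29.3) were not above background on either array, and Apoa1 gave 69 and 81. Rpgrip1, a ciliary gene of photoreceptors, gave 6295 and 166 units, 38.0-fold higher on replicate 1, on 1 probe set, its 3 others not being above background. Cap1, an actin regulator, gave 2073 and 360.2, and its other probe set 1511 and 296, so both ran the same way. Tmem18 gave 885 and 146, and in the other direction Tlx2 gave 83.6 and 409, Hebp1 134 and 587 and Vgll4 85.6 and 367.

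Where a second probe set was available, it often did not reach a 2-fold difference. Among 61 genes with 2 or more probe sets above background whose brightest was over 2-fold apart, the second lay on the same side in 39 and was over 2-fold apart there in 9. Several short lists ran one way, the erythroid and the sex-linked list among them. All 5 nerve markers above background were higher on replicate 2, and all 3 muscle precursor markers above it were higher on replicate 1. All 7 erythroid markers above background were higher on replicate 2, by a median of 0.59 log2 units, with Alas2, of haem synthesis, at 427 and 726, Klf1 at 218 and 347 and Epor, the erythropoietin receptor, at 121 and 395. Xist, transcribed from the inactive X of female cells, gave 1732 and 1389.8 units, and the Y-linked genes were Eif2s3y (543 and 350.4), Kdm5d (548 and 232) and Uty (334 and 203). All 4 of these were above background on both arrays and higher on replicate 1. Among cytoskeletal genes Actb gave 15935 and 31840.3 units, and Actg1, the other cytoplasmic actin, 25732 and 32933. The part of blood content, RNA quality or dissection in these differences was not tested.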

How the data were processed

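The authors deposited 1 linear intensity per probe set and array, made with MAS5 per the submitters' processing notes. MAS5 subtracts background, combines matched and mismatched probes and scales each array. The sources used here do not give its version, and detection calls and scanner files were not analysed here. Of 45101 probe sets, 64 were controls, 34945 matched a single gene symbol, 932 more than 1 and 9160 none in the platform's annotation. Of 18193 genes, 18031 were found by gene ID in RefSeq (GRCm38.p6), and 14367 had a promoter entry.

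With Python 3.11.15, pandas 2.3.3, numpy 2.4.6 and scipy 1.17.1, the brightest probe set, the background level, ranks, array differences and paralogue ratios were computed from the 2 wild-type arrays only. The scripts were tested on simulated data. One group of 2 arrays was described and no test was run, and the number of arrays limits the precision. Correlations over probe sets used a floor at the 20th percentile. Promoter motif shares are given only for gene sets of which at least 80% had an entry.

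The genes named were the 20 brightest of all, the 20 brightest transcription factors, 12 ligands, 8 antagonists, 12 receptors and 15 matrix genes, all paralogue pairs, up to 4 genes of each other list (all of lists with 5 or fewer counted) and the 10 genes most raised and most lowered between arrays. Further Hox genes, Hoxa11os, Evx2, Mki67, Fos, Grem1, Sp6, Sp8 and the marker genes given as not above background were named after their values were seen. Members and lists were chosen with earlier results of these data known. Alternatives were other background levels, normalizations, probe set rules and means, and leaving out each array.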

Additional observations from a re-analysis of the deposited data

How the results depend on the processing

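The counts of genes above background stayed within 1.5 times under all alternatives run: 9760 to 12203 genes, 325 to 414 transcription factors, 93 to 131 ligands, 96 to 136 receptors and 88 to 109 matrix genes. The 1194 probe sets over 2-fold apart became 1793 with the level at the 90th percentile of sensory receptors, 266 with a 3-fold and 3880 with a 1.5-fold limit. The correlation of 0.956 over all probe sets became 0.938 without suffixed probe sets, 0.910 without a floor and 0.970 above background. The 16 paralogue pairs past the limit became 8 without suffixed probe sets, where 9 pairs had no value, and 15 to 16 without either array. Those 8 were 6 of the 16 and 2 newly past, Hoxa10 and Hoxd10, in the reversed order, and Fgfr1 and Fgfr2. By the median over probe sets 3 pairs were newly past: Tbx2 and Tbx3, Sox9 and Sox5, and Fgfr1 and Fgfr3. By the median over probe sets 15 of 45 log2 ratios stayed within 1 SD of the arrays, 24 moved by more with the same sign, 155 of 281 named gene signals moved by more than 1 SD, and 6 ratios reversed: Hoxa10 to Hoxd10 -3.86, Prrx1 to Prrx2 -2.23, Lhx9 to Lhx2 -0.31, Sox11 to Sox4 2.20, Notch1 to Notch2 0.052 and Epha4 to Epha3 -1.44. Without suffixed probe sets 4 reversed: Hoxa10 to Hoxd10 -7.91, Msx1 to Msx2 -1.07, Meis2 to Meis1 -0.32 and Fgfr1 to Fgfr3 -0.69. The cause was not tested. No paired analysis was possible because 1 group was described and no test was run. Weak signals limit the order of genes near background, where arrays differed most.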

Other observations

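Probe sets without a gene symbol carried signal too. Of 9160 such probe sets 1548 (16.9%) were above the background level and 12 were among the 100 brightest probe sets. The brightest of them gave 31819 units on replicate 1 and 37105 on replicate 2, and the next 29842 and 38977. Probe sets with several symbols were above it in 541 of 932 cases (58.0%) and filled 43 of the 100 brightest places, against 19730 of 34945 (56.5%) and 45 places for probe sets with 1 symbol. The ranking by gene leaves both kinds out.

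Among the 22 histone genes the replication-independent variants H2az1 (21097 and 21567 units) and H2az2 were the brightest. The chaperone list, whose search pattern also took in the basement membrane proteoglycan gene Hspg2, had 70 of 80 genes above it.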
